A study of Homo sapiens with 18 samples.

Results

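The genes of the human histone clusters were examined in bulk RNA from organoids exposed to dopamine or cocaine. Genes were taken by symbol: a name beginning with HIST1, HIST2, HIST3 or HIST4 followed by a class (H1, H2A, H2B, H3 or H4), without the letters PS that mark pseudogenes. A gene was kept with at least 10 raw reads in 3 or more libraries. Of 76 such symbols 28 were kept, out of 53853 genes in the table. They comprised 2 of 6 H1, 7 of 17 H2A, 10 of 23 H2B, 2 of 15 H3 and 7 of 15 H4 genes. The genes were thus selected on their read counts, and their being detected is a description. Of the 48 symbols under the threshold, 7 were at 0 in all 18 libraries. Just inside the threshold were HIST1H2BN, HIST1H1E and HIST1H2BJ, whose counts in the library that decided it (the 3rd from the top) were 10, 11 and 11 reads. Just outside were HIST1H2AI, HIST1H2BC and HIST1H3D, with 7 reads each in that library.

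Ventral forebrain organoids, neural tissue grown in suspension, had been made from H9, an established human embryonic stem cell line, with SHH (100 ng/mL) and purmorphamine (1 µM) from day 10. From day 83 they were dosed daily for 1 week, 1 h at a time. There were 6 groups of 3 libraries: control (100 µM ascorbic acid, the vehicle, which the dosed groups carried too), dopamine (1 µM), cocaine (1 µM), and the same 3 with the inhibitor of reactive oxygen species acetylcysteine (100 µM). H9 is 1 line, and a further line in the series' design was not analysed here. Whether the 3 libraries of each group were grown as separate cultures is not in the labels. A p-value here therefore reflects the spread between libraries, and that spread may be technical.

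Core histones (H2A, H2B, H3 and H4) form the protein spool around which DNA is wound, and the linker histone H1 sits where DNA enters and leaves it. Most cluster genes are switched on while DNA is copied, and their messages end in a short stem-loop in place of a poly(A) tail. The stem-loop is bound by SLBP, which guides the processing and translation of the message. Some cluster genes can also make polyadenylated messages in cells that no longer divide. The libraries were made from polyA RNA per the labels, so the levels given here are those in that fraction.

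The stem-loops of the most abundant gene of 4 classes, and of a second H2B gene with a different one, are shown because they bear on what a polyA library can hold. Capitals mark the stem and loop, in gene orientation, read from the hg38 genome at positions that follow the GENCODE stop codon.
HIST1H1C (H1, chr6:26055739-26055764, minus strand): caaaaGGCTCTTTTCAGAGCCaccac
HIST3H2A (H2A, chr1:228457364-228457389, minus strand): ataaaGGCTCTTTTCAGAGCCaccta
HIST2H2BE (H2B, chr1:149886183-149886208, minus strand): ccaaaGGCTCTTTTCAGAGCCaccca
HIST1H2BD (H2B, chr6:26158582-26158607, plus strand): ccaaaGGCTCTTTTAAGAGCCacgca
HIST2H4A (H4, chr1:149833027-149833052, plus strand): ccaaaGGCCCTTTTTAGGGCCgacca
A hairpin of this form (a 6-base stem that begins with GG and ends with CC, around a 4-base loop that begins with TT) was found within 200 bases after the stop codon in 27 of 27 members with an annotated stop codon. It was found in 24 of 19950 other protein-coding genes (0.120%). Among the members there were 6 different hairpins. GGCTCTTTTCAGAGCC was in 14 genes of the H1, H2A, H2B and H3 classes, and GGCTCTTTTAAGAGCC in 4 H2B genes. All 7 H4 genes had a stem with GGCCC, 4 of them as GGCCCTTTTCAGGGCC. The member without a stop codon was HIST2H2BC, which RefSeq lists as a transcribed pseudogene of H2B under the name H2BC20P.

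In HIST1H1C the RefSeq gene ended 4 bases past the stem-loop, and in most members 4 to 6 bases past it. HIST2H2BE ran on for another 1729 bases. The RefSeq genes of HIST1H2BK, HIST1H2BD, HIST2H4B and HIST2H2BF ran on for 8073, 12747, 16281 and 29196 genome bases, and HIST1H2BG for 18. The ratio of deposited reads to deposited TPM (a level scaled for gene length and for the total of a library) gives the length of the gene model the authors used. Scaled to the 732 bases they list for HIST1H1C, it came to 2227 bases for HIST2H2BE, 1346 for HIST1H2BD, 1068 for HIST2H2BF and 884 for HIST1H2BK. These 4 H2B genes, with models over 800 bases, held 62.8% of the members' reads. The other members' models came to between 348 and 783 bases, with HIST2H4B at 397 despite its long RefSeq gene. Reads past the stem-loop cannot be told apart from reads before it in counts per gene.

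Promoters are shown for the linker genes and for the member with the most reads, as the 150 bases upstream of the RefSeq start (GRCh38.p14). Capitals mark 4 motifs searched on both strands: the TATA box as TATAAA, the box bound by NF-Y as CCAAT, the H1 box of linker histone promoters as AAACACA, and the octamer bound by POU2F1 as ATTTGCAT.
HIST1H1C (chr6:26056471-26056620, minus strand): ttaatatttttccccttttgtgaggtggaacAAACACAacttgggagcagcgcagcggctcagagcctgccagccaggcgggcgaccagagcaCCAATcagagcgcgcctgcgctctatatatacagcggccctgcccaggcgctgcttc
HIST1H1E (chr6:26156179-26156328, plus strand): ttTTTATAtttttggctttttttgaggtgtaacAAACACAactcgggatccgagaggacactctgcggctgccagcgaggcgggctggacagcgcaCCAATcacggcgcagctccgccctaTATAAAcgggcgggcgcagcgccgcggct
HIST2H2BE (chr1:149886683-149886832, minus strand): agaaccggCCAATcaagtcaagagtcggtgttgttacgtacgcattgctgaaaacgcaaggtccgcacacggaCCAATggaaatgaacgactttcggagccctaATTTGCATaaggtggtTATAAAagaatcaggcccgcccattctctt
Both linker genes had the H1 box (first base at -119 and -117) and CCAAT (-57 and -54). HIST1H1E also had TATAAA at -29, and these exact letters were not in the HIST1H1C window. The printed HIST1H1C bases do hold tatatata, which a search for TATAAA does not mark, so a TATA-like stretch is not excluded. Over windows of 250 bases before to 50 after the start, which 26 of the 28 members had in RefSeq, AAACACA was in 4, namely both H1 and both H3 genes, against 5.76% of 27305 promoters. In the H3 genes it lay past the start (first base at 31 and 35), not upstream as in the H1 genes. The H3 genes, HIST2H3A and HIST2H3C, are near-identical copies and not separate cases. CCAAT was in 20 of 26, all but the 6 H4 promoters, against 35.7%. ATTTGCAT was in 6 of 9 H2B and 3 of 7 H2A promoters and in none of the others, against 1.80%. Some H2A and H2B genes start close together on opposite strands, so their windows overlap. The ATTTGCAT sites of HIST1H2AE (-192) and HIST1H2AG (-208) are the same bases as those of HIST1H2BG (-48) and HIST1H2BJ (-47). The counts by class are thus not independent, and sites of the other motifs can likewise be counted in both genes. TATAAA was in 16 of 26, against 11.95%. These matches describe letters in the window and do not show that a factor binds.

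The libraries held 23789195 to 30327891 reads. Summed markers of neurons stood at 8050 to 10826 CPM (counts per 1000000 reads, scaled between libraries) and of ventral interneurons at 279 to 589 CPM, against 2.19 to 5.78 CPM for pluripotent cells and 0.209 to 0.782 CPM for microglia. Libraries of the same group differed by more than sampling noise (chi-square per gene of 3.54 to 21.7), and each was counted once.

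A few genes carried most of the histone signal. HIST3H2A (H2A, in the small HIST3 cluster of chromosome 1) was the highest at 135 ± 10.3 TPM (SD over 18 libraries), followed by HIST2H2BE at 121 ± 9.36 TPM. HIST1H2BD (39.7 TPM), HIST1H1C (37.4 ± 14.0 TPM) and HIST1H2AC (29.4 TPM) came next. HIST2H2BE alone held 49.6% of the members' reads, over a model of 2227 bases. At the other end 16 members were under 10 TPM. The lowest was HIST1H1E, the second linker gene, at 1.27 TPM.

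**Figure D1:**
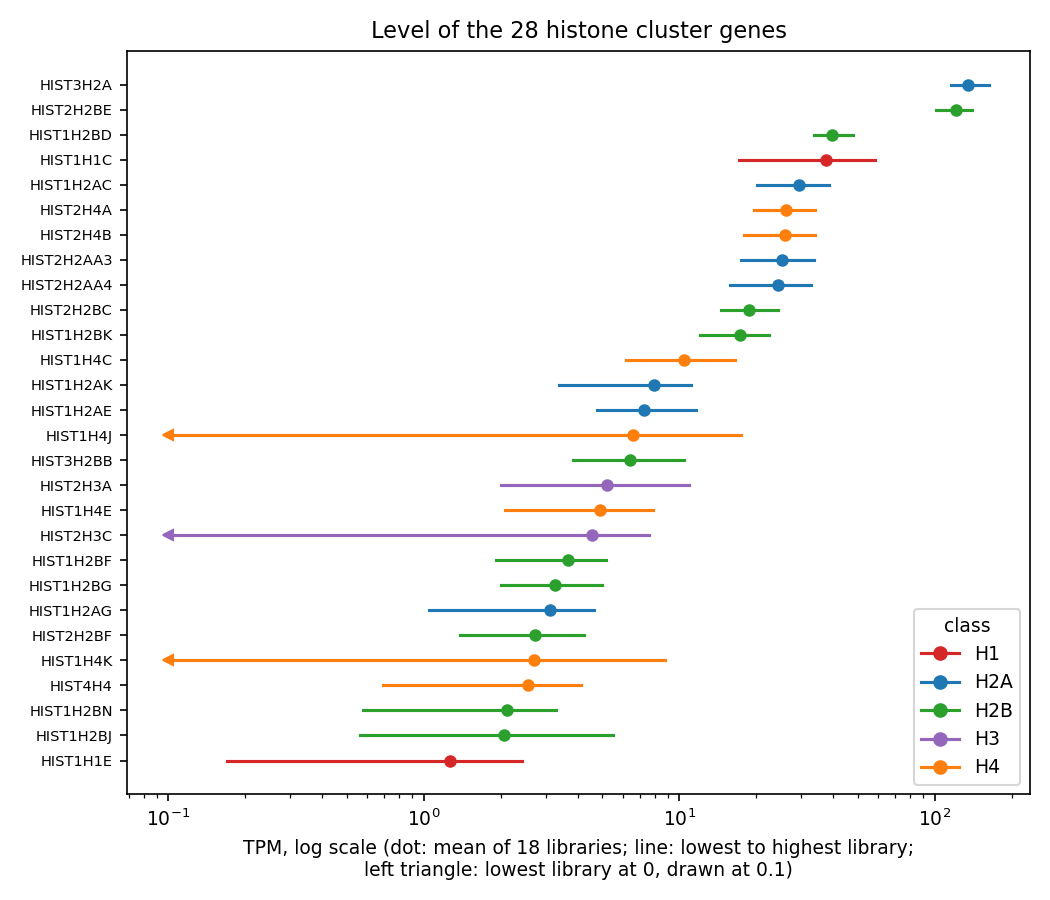
Mean level of each of the 28 histone cluster genes over 18 libraries in TPM on a log scale, coloured by class, with lines from the lowest to the highest library. HIST3H2A and HIST2H2BE stand above 100 TPM, while HIST1H4J, HIST2H3C and HIST1H4K reach 0 in at least 1 library.

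By class, H2A genes took 40.3% of the members' summed TPM, H2B 37.6%, H4 13.7%, H1 6.70% and H3 1.69%. In a nucleosome core the 4 core histones are present in equal number, which these levels of cluster members in the polyA fraction did not match. The shares leave out histone genes outside the clusters, so they are not shares of all histone message. H3F3B, an H3 gene outside the clusters, stood at 832 CPM in the controls, against 73.8 CPM for HIST2H2BE. The H3 share rested on HIST2H3A (5.20 TPM) and HIST2H3C (4.54 TPM). By cluster, the 9 HIST2 members held 43.95%, the 16 HIST1 members 31.1%, the 2 HIST3 members 24.5% and HIST4H4 0.444%. HIST1, the largest cluster with 55 of the symbols, thus held less of the level than HIST2 with 16.

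Many H2A and H2B genes lie head to head within 500 bases, and in several such pairs the partners' levels were far apart. HIST3H2A stood at 135 TPM and HIST3H2BB, which starts 229 bases away on the other strand, at 6.43 TPM. HIST2H2BE stood at 121 TPM and its H2A partner HIST2H2AC at 0.627 TPM. HIST1H2BK was at 17.3 TPM against 0.194 TPM for HIST1H2AH. The higher partner was the H2B gene in the last 2 pairs and the H2A gene in the first. In the pair HIST2H2BC and HIST2H2AA4 the levels were 18.6 and 24.3 TPM.

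The summed level of the members varied little between libraries, from 508 to 648 TPM (a ratio of 1.27). For H2A the ratio of the highest to the lowest library was 1.30, for H2B 1.25 and for H4 1.62. It was 3.36 for H1, from 17.8 to 59.7 TPM, and 4.92 for H3. Of the 14 members with a mean of at least 1 CPM, HIST1H1C had the highest coefficient of variation over libraries (38.1%, and 20.1% within groups), and HIST3H2A the lowest (7.66%). HIST1H4C, the next in order, varied as much within groups (30.8%) as over all libraries (30.4%). The H3 range came from few reads, as HIST2H3A held 8 to 45 and HIST2H3C 0 to 30 reads per library.

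HIST1H1C, which encodes the linker histone H1.2, was higher in the groups that had received either drug than in the groups that had not. Its gene lies on chromosome 6 at 26055740 to 26056470, on the minus strand (RefSeq H1-2). The 3 controls had 92, 142 and 115 reads (3.46, 4.78 and 4.15 CPM), and the dopamine libraries 300, 308 and 356 reads (10.8, 10.8 and 11.8 CPM). The cocaine libraries had 168, 205 and 277 reads (6.29, 8.18 and 11.4 CPM). All 6 libraries of the drugs were above all 3 controls. Level rose by 1.42 on the log2 scale with dopamine (SE 0.24, edgeR adjusted p = 0.0127) and by 1.05 with cocaine (SE 0.24, adjusted p = 0.0313). The gene was named with this response already known, so neither p is independent support for it.

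With acetylcysteine the control libraries of HIST1H1C stood at 4.71, 3.44 and 5.91 CPM. The dopamine + inhibitor libraries stood at 8.24, 11.3 and 7.11 CPM, and the cocaine + inhibitor libraries at 9.97, 6.11 and 8.34 CPM. Again the drug libraries were all above their controls, without overlap, but neither difference passed adjustment. The log2 difference was 0.93 for dopamine (SE 0.24, edgeR adjusted p = 0.514) and 0.80 for cocaine (SE 0.24, adjusted p = 0.169). With DESeq2 the latter passed (adjusted p = 0.0473), and so it did without cocaine + inhibitor 2 (0.0320).

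Ordered by mean, HIST1H1C stood at 4.13 ± 0.662 CPM in control, 4.68 ± 1.23 in control + inhibitor, 8.14 ± 1.94 in cocaine + inhibitor, 8.61 ± 2.56 in cocaine, 8.90 ± 2.20 in dopamine + inhibitor and 11.1 ± 0.571 in dopamine (SD, n = 3 each). Neighbours in this order overlapped except at the step from control + inhibitor to cocaine + inhibitor. The inhibitor alone differed from control by 0.18 on the log2 scale (edgeR adjusted p = 0.998). The tests of whether the inhibitor changed the response to a drug gave -0.50 for dopamine (SE 0.34, adjusted p = 0.733) and -0.26 for cocaine (SE 0.34, adjusted p = 0.973). Neither passed, which does not show that the responses were alike.

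The dopamine call for HIST1H1C did not hold in every fit that left out 1 library. It was lost without control 1 (edgeR adjusted p = 0.0912), control 3 (0.0621) or dopamine 2 (0.0849). Its log2 fold change stayed between 1.31 and 1.55 in the 6 such fits. The cocaine call was lost without control 1 (0.140), control 2 (0.0818), control 3 (0.0705), cocaine 2 (0.0667) or cocaine 3 (0.191), with 0.81 to 1.24. Each such fit keeps fewer libraries.

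**Figure D2:**
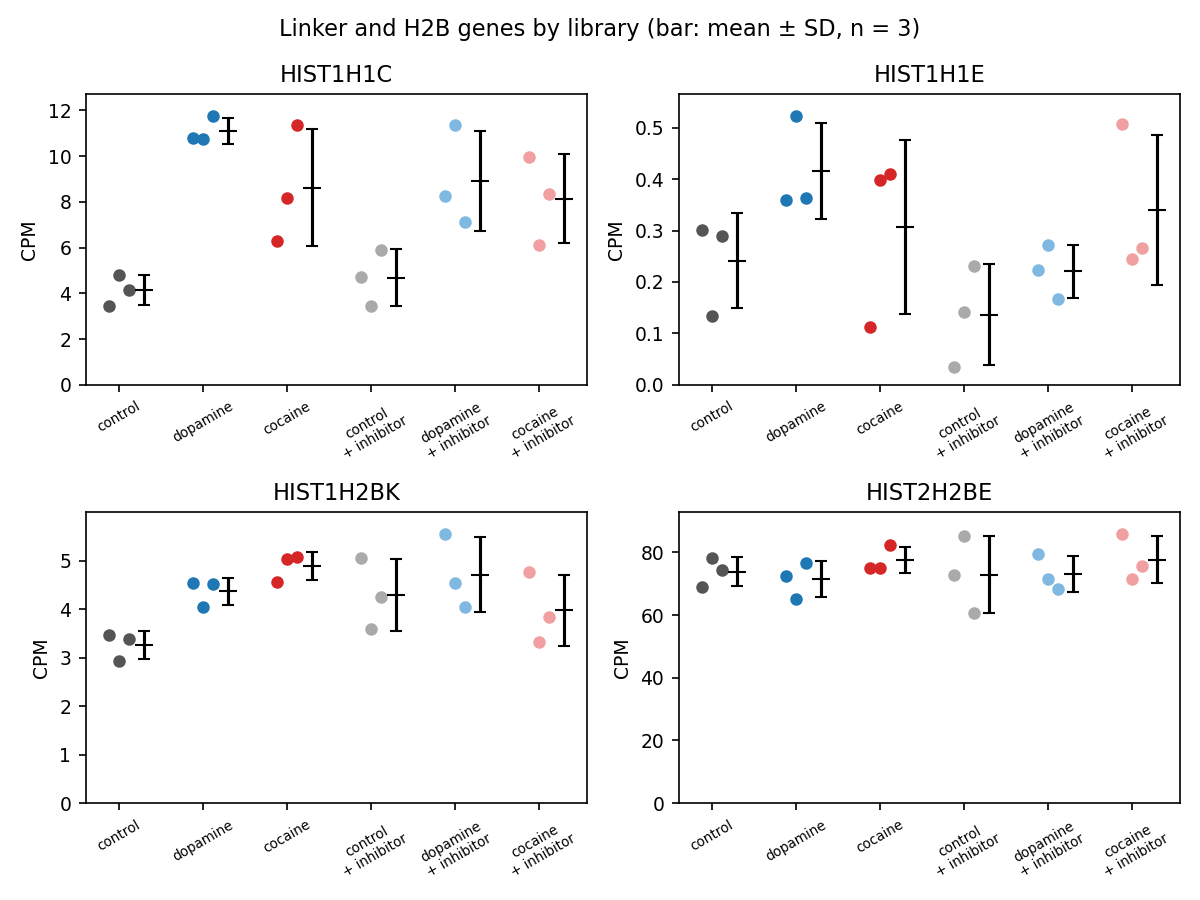
Level of 4 members by library in CPM (dots), with mean ± SD beside each group of 3. For HIST1H1C all dopamine and cocaine libraries lie above the controls, and the same holds in the groups with inhibitor, while the 6 groups of HIST2H2BE overlap.

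HIST1H1E, which encodes the linker histone H1.4, was scarce. Its reads were 8, 4 and 8 in the controls, 10, 15 and 11 with dopamine, and 3, 10 and 10 with cocaine. With the inhibitor they were 1, 4 and 6 in the controls, 6, 7 and 4 with dopamine, and 12, 7 and 8 with cocaine. The dopamine libraries lay above the controls without overlap, and the cocaine libraries did not. The log2 difference was 0.79 with dopamine (SE 0.51, edgeR adjusted p = 0.524) and 0.34 with cocaine (SE 0.54, adjusted p = 0.750). At this depth the intervals, -0.20 to 1.78 and -0.72 to 1.39, take in both 0 and rises as large as that of HIST1H1C with cocaine. No 50-base stretch of either linker transcript was shared with another gene of the 76.

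With dopamine, HIST1H1C was the 1 member of 28 that passed, against 0.703% of the 18913 genes tested. All 28 members had passed the expression filter, and none owed its place to 1 group alone. The members' median log2 difference was 0.00, as was that of all genes, with 14 positive and 14 negative. Without overlap, 6 members were higher (12.2% of all genes) and 0 lower (11.8%). The 6 were HIST1H1C, HIST1H1E, HIST1H2AC, HIST1H2BJ, HIST1H2BK and HIST1H2BN, which all lie in the HIST1 cluster, as do 16 of the 28 members. HIST1H1E, HIST1H2BJ and HIST1H2BN rest on few reads. HIST1H2BN had 5, 5 and 5 reads in the controls and 6, 9 and 9 with dopamine. For HIST1H2BK, an H2B gene, the controls were at 3.46, 2.93 and 3.39 CPM and the dopamine libraries at 4.54, 4.05 and 4.53 CPM, a log2 difference of 0.42 (SE 0.16, edgeR adjusted p = 0.236).

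The abundant core histone genes differed little with dopamine. For HIST2H2BE the controls stood at 68.9, 78.2 and 74.3 CPM and the dopamine libraries at 72.6, 65.2 and 76.7 CPM (log2 difference -0.05, SE 0.10). HIST3H2A was at 17.4, 18.7 and 17.2 against 17.9, 15.8 and 17.5 CPM (-0.06, SE 0.08). The libraries of the groups overlapped for both genes. All 7 H4 genes were negative with dopamine, with a median of -0.20 and a range from -0.64 (HIST4H4) to 0.00 (HIST1H4K), and 0 of them passed. Those 7 are not separate measurements, as 4 of them form 2 pairs of near-identical copies.

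Cocaine likewise gave 1 called member of 28, HIST1H1C, against 4.33% of all genes. The median of the members was 0.11 and that of all genes 0.01, with 19 members positive and 9 negative. HIST1H2BK was next. Its cocaine libraries stood at 4.57, 5.02 and 5.08 CPM, all above the controls. Its log2 difference of 0.59 (SE 0.16) had an edgeR adjusted p of 0.0504, so it did not pass. It passed with RLE size factors, another scaling of the libraries (adjusted p = 0.0498), a stricter filter (0.0431), DESeq2 (0.0229) and a fit of these groups only (0.0381).

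HIST1H1C and HIST1H2BK were the 2 members higher with cocaine without overlap (16% of all genes). HIST4H4, the H4 gene on chromosome 12, was the 1 lower (16.2% of all genes). It had 7, 9 and 13 reads in the controls and 5, 5 and 2 with cocaine (log2 difference -1.11, SE 0.46, edgeR adjusted p = 0.153). In the cocaine + inhibitor group it had 11, 11 and 10 reads, without overlap with cocaine alone. The difference between these groups of 1.29 (SE 0.45) had an unadjusted p of 0.0102 and an adjusted p of 1.00. HIST2H2BE and HIST3H2A were at 0.07 and 0.08 with cocaine (SE 0.10 and 0.08).

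**Figure D3:**
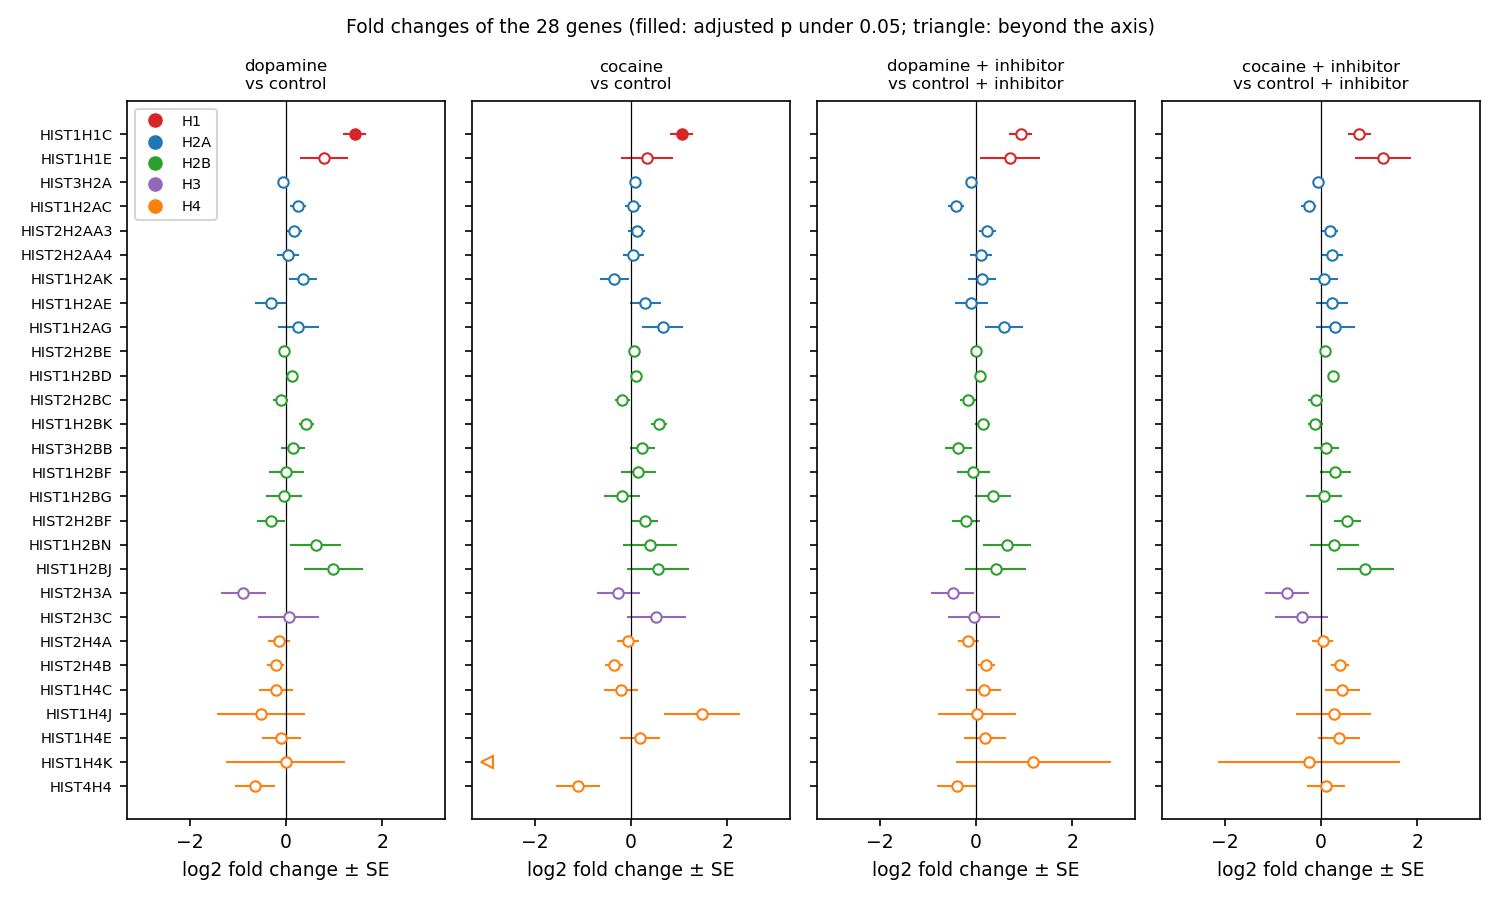
Log2 fold change ± SE of the 28 genes in the 4 comparisons of a drug with its control, coloured by class, with filled dots where the edgeR adjusted p was under 0.05. HIST1H1C is filled with dopamine and cocaine, and the arrow for HIST1H4K with cocaine stands for -6.76, where reads were split between copies.

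With the inhibitor present, 0 of 28 members were called for dopamine (0.00529% of all genes) and 0 for cocaine (0.0211%). At an unadjusted edgeR p under 0.05 there were 2 (5.58% of all genes) and 4 (16.6% of all genes). DESeq2 called 0 and 1, and its counts over all genes are given at the end. For cocaine the 4 were HIST1H1C, HIST1H2BD, HIST2H4B and HIST1H1E, all positive, with log2 differences of 0.80, 0.25, 0.40 and 1.28. HIST1H2BD stood at 12.3, 15.9 and 13.6 CPM in control + inhibitor and at 18.4, 14.3 and 17.1 CPM in cocaine + inhibitor, and these overlapped. The members' median was 0.21 against 0.00 for all genes, with 21 positive and 7 negative. Without overlap 5 members were higher (7.89% of all genes) and 1 lower (8.75%) for cocaine, and 2 higher (5.81%) and 1 lower (4.41%) for dopamine.

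The lower member was HIST1H2AC, an H2A gene, in both cases, and the comparisons share their control libraries. It stood at 5.70, 4.644 and 5.21 CPM in control + inhibitor, at 4.14, 4.11 and 3.43 CPM in dopamine + inhibitor and at 4.01, 4.641 and 4.33 CPM in cocaine + inhibitor, which just missed overlap. Without the inhibitor the controls stood at 3.99, 4.31 and 4.08 CPM and the dopamine libraries at 4.54, 5.55 and 4.56 CPM, so the order was the opposite. The interaction of dopamine with the inhibitor was -0.66 for this gene (SE 0.23, unadjusted p = 0.0110, edgeR adjusted p = 0.507). For HIST1H2BK the interaction of cocaine with the inhibitor was -0.70 (SE 0.23, unadjusted p = 0.00713, adjusted p = 0.918). Neither passed.

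The inhibitor alone called 0 of 28 members against control (0% of all genes), 0 in the dopamine groups (0.00529%) and 0 in the cocaine groups (0%). DESeq2 called 0 members in each. At an unadjusted edgeR p under 0.05 there were 1 (5.72% of all genes), 1 (8.67%) and 2 members (3.21%). These were HIST1H2BK against control (0.40, SE 0.16), HIST3H2BB in the dopamine groups (-0.73, SE 0.27), and HIST2H4B (0.54, SE 0.18) and HIST4H4 in the cocaine groups. HIST2H4B stood at 1.99, 2.31 and 2.79 CPM with cocaine and at 3.85, 3.07 and 3.37 CPM with cocaine + inhibitor, without overlap. Without overlap, 3 members were higher (5.5% of all genes) and 0 lower (5.52%) in the first of these comparisons. There were 3 higher (7.65%) and 3 lower (7.47%) in the second, and 4 higher (4.19%) and 0 lower (3.75%) in the third. The interactions called 0 members each (0.00529% of all genes for dopamine and 0% for cocaine). At an unadjusted edgeR p under 0.05 they had 1 (8.35% of all genes) and 2 (5.26%).

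Some members are near-identical copies, and the reads of some such pairs were divided unevenly. HIST1H4J and HIST1H4K, H4 genes on opposite strands of chromosome 6, share 92.1% of the 50-base stretches of the HIST1H4J transcript. HIST1H4J had 23, 0 and 13 reads in the controls while HIST1H4K had 0, 20 and 22. With cocaine HIST1H4J had 19, 29 and 44 reads and HIST1H4K had 0 in all 3 libraries. HIST1H4K was at 0 in 9 of the 18 libraries, but the pair never fell below 16 reads together. Over libraries the reads of one varied by 61.4% and of the other by 128% (coefficient of variation), and their sum by 28.1%.

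Taken alone, HIST1H4K gave the most negative fitted value of any member with cocaine, -6.76, against a group at 0. Summed with HIST1H4J the log2 difference was 0.38 (SE 0.33, edgeR adjusted p = 0.521). For HIST2H3A and HIST2H3C, copies that encode H3, control 2 had 45 reads for the former and 0 for the latter, whereas the other 17 libraries had reads for both. Their sum was at -0.53 with dopamine (SE 0.34, adjusted p = 0.532) and 0.03 with cocaine (SE 0.33, adjusted p = 0.963). The pairs HIST2H2AA3 with HIST2H2AA4 and HIST2H4A with HIST2H4B, which share 99.8% or more of their stretches, were split nearly evenly (63 to 144 reads each and 53 to 111 reads each). As sums they were at 0.10 and -0.18 with dopamine and at 0.09 and -0.20 with cocaine, and neither passed.

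**Figure D4:**
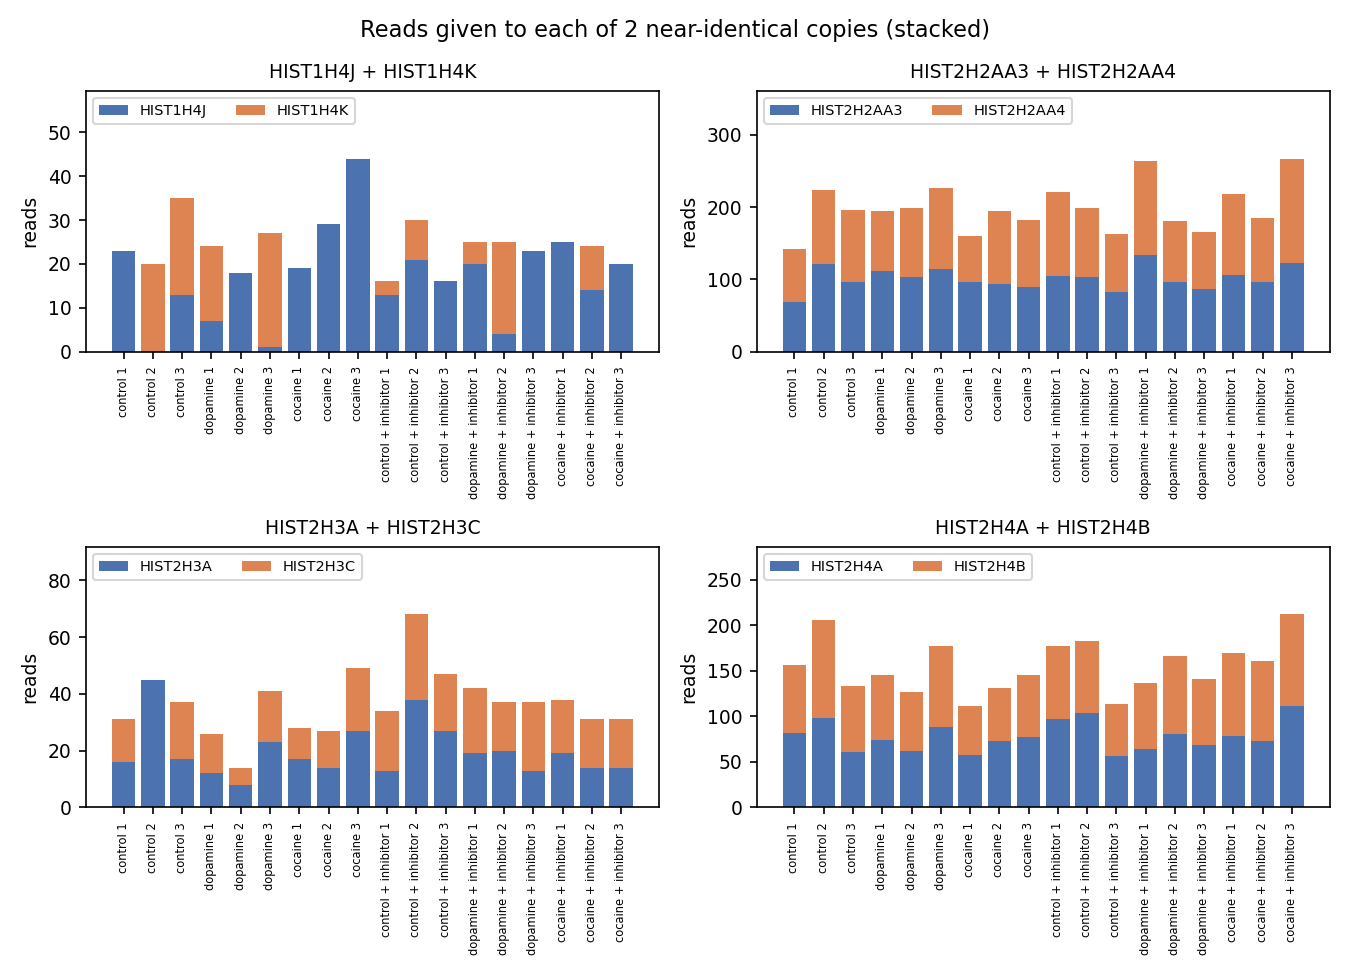
Reads per library given to each of 2 near-identical copies, stacked, for 4 pairs. HIST1H4J and HIST1H4K replace one another from library to library, while the pairs of H2A and HIST2 H4 genes are split nearly evenly.

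Histone genes outside the clusters, which lack replication-type control for the most part, were compared from a list of 12 of which 11 were tested. With cocaine 10 of 11 were positive (median 0.26, all genes 0.01) and 2 (18.2%, against 4.33% of all genes) rose. They were H2AFZ, the variant H2A.Z found at gene starts (112 ± 1.07 to 145 ± 18.6 CPM, SD, n = 3; edgeR adjusted p = 0.0332), and H3F3B, which encodes the H3.3 laid down outside replication (832 ± 12.6 to 948 ± 30.5 CPM, adjusted p = 0.0361). With dopamine 6 of 11 were positive, with a median of 0.03 and 0 called. Of 18 genes that transcribe or process histone messages, SLBP among them, 0 were called with either drug (medians 0.05 and 0.04). Of 20 histone chaperones 3 (15.0%, against the same 4.33%) rose with cocaine, namely ASF1A (0.19), which hands H3 and H4 to assembly factors, NAP1L1 (0.27), which carries H2A and H2B, and NPM1 (0.25), and 0 were called with dopamine.

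Cell-cycle and cell-type markers moved beside these values. Of 37 replication genes 36 were positive with cocaine (median 0.30), and PCNA (0.42) and MCM6 (0.32), parts of the clamp and helicase of the replication fork, rose. All 20 mitotic genes were positive (median 0.82), and HMMR rose (1.21, SE 0.29). The called shares, 5.41% and 5.00%, were near the 4.33% of all genes. The summed level of the mitotic genes was 297 to 344 CPM in the controls, 333 to 397 CPM with dopamine and 400 to 818 CPM with cocaine.

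With cocaine the summed interneuron markers stood at 279 to 412 CPM against 503 to 583 CPM in the controls, 0 of 9 were positive, and 3 fell, namely DLX6 (-1.05), a forebrain interneuron factor, GAD2 (-0.64), which makes GABA, and SLC32A1 (-0.68), which loads it into vesicles. Neuron markers stood at 8050 to 8955 CPM against 9816 to 10313 CPM, 0 of 10 were positive, and DCX (-0.31) and MAPT (-0.42), which bind microtubules, fell. Radial glia markers stood at 2645 to 3012 CPM against 2337 to 2484 CPM, 9 of 10 were positive, and VIM (0.38), an intermediate filament, rose. Choroid plexus markers stood at 141 to 387 CPM against 66.0 to 130 CPM, 8 of 9 were positive, and the water channel AQP1 (1.42) rose. RGS5 (0.85), a pericyte marker, rose, and MBP (-0.53), a myelin protein, fell. With dopamine 1 marker was called, OLIG1 (-1.34, edgeR adjusted p = 0.0141), an oligodendrocyte lineage factor, which was lower. Summed choroid plexus markers were then at 150 to 163 CPM, with 7 of 9 positive, interneuron markers at 386 to 486 CPM, with 0 of 9 positive, and neuron markers at 9127 to 9694 CPM, with 0 of 10 positive. The part of these markers in the level of HIST1H1C was not tested. In bulk RNA fewer cells of a type and less RNA per cell cannot be told apart.

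RNA species known to lack a poly(A) tail give a view of how much untailed RNA entered each library. Their summed level was 459 to 690 CPM in the controls, 350 to 529 CPM with dopamine, 390 to 544 CPM with cocaine, and 374 to 664 CPM in the 9 libraries with inhibitor. Of the 8 tested, 0 were positive with dopamine (median -0.55) and 4 with cocaine (median 0.06), and 0 were called with either. The part of untailed RNA in the level of any member was not tested.

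Cluster genes varied in how they ran with DNA replication genes across the 18 libraries. As a description, Pearson's r between a member's log2 CPM and the mean of the 37 replication genes ran from -0.51 to 0.61 with a median of 0.18, and 22 of 28 were positive. Without cocaine 3 and cocaine + inhibitor 1, which had the highest replication level, the median was 0.019 and 14 were positive. In all 18 libraries r was over 0.5 for 4 members (HIST2H2BF, HIST1H2AE, HIST1H2BJ and HIST1H1C) and under -0.5 for HIST1H4K, and without those 2 libraries over 0.5 for 2 members and under -0.5 for 0. The replication genes themselves had a median of 0.86 with their own mean. Histone genes outside the clusters reached 0.91 (CENPA, the centromere histone), 0.87 (H2AFX) and 0.86 (H2AFZ), and H2AFJ was at -0.66. All of these share libraries and depth, and the low members rest on few reads.

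For HIST1H1C r was 0.53 and Spearman's rho 0.49. Without those 2 libraries r was 0.41, and after subtracting group means it was 0.80. The dopamine libraries had a replication level of 3.62 to 3.68 (mean log2 CPM), close to the 3.54 to 3.65 of the controls, and the highest group mean of HIST1H1C. Cocaine 1, 2 and 3 stood at 3.71, 3.94 and 4.16 on the replication scale and at 6.29, 8.18 and 11.4 CPM for HIST1H1C. HIST2H2BE had an r of 0.12 and a rho of -0.042, and without those 2 libraries its r was -0.46.

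**Figure D5:**
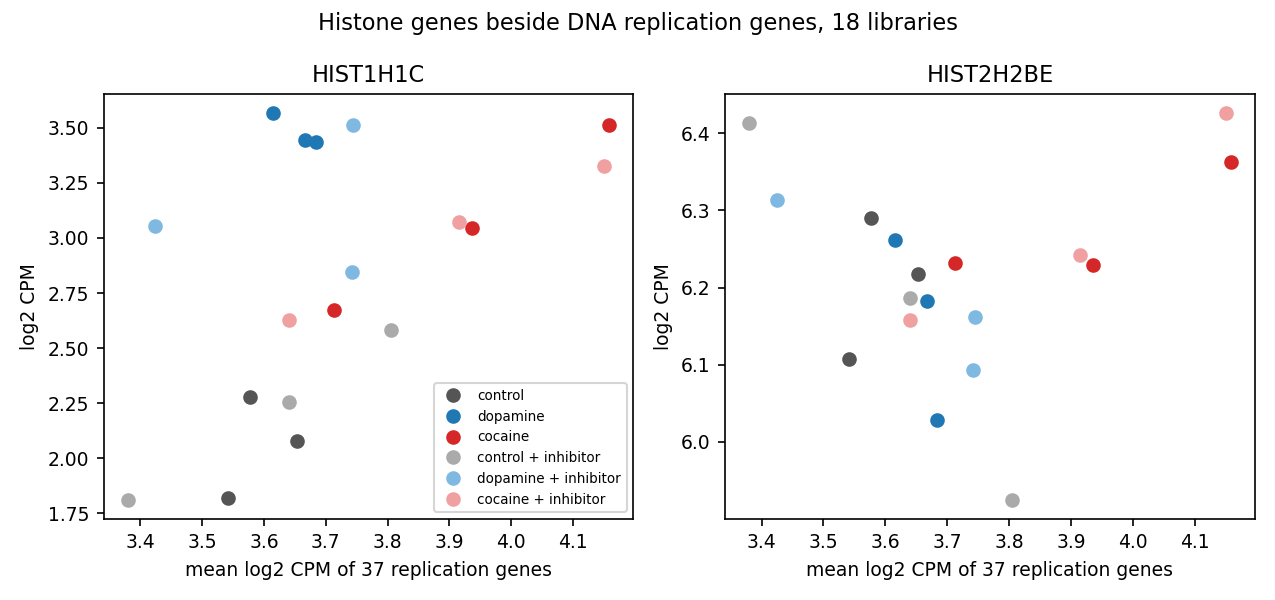
Log2 CPM of HIST1H1C (left) and HIST2H2BE (right) against the mean log2 CPM of 37 DNA replication genes, 1 dot per library, coloured by group. The dopamine libraries have a high HIST1H1C at a replication level near that of the controls, and the cocaine libraries spread along both axes.

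Among 12617 genes with a mean of at least 5 CPM, those whose log2 CPM was most like that of HIST1H1C over the 18 libraries were TNFRSF10B (r 0.93), CCDC9 (0.92), FTL (0.91), NUP58 (0.90), SEC13 (0.90) and PGM3 (0.90). TNFRSF10B encodes a death receptor, FTL the ferritin light chain, NUP58 a nuclear pore protein and SEC13 a coat protein of secretory vesicles. The points share groups as well as libraries, and after subtracting group means r was 0.59 (FTL) to 0.80 (TNFRSF10B). TNFRSF10B rose by 0.35 (SE 0.08) with dopamine and by 0.30 (SE 0.08) with cocaine (edgeR adjusted p = 0.0366 and 0.0358). It was picked for its likeness to HIST1H1C in these same libraries, so neither p is independent support. Among the members the most like were HIST1H2BJ (0.65), HIST1H1E (0.60) and HIST1H2BK (0.59), and the least like HIST4H4 (-0.49) and HIST2H2BC (-0.46).

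In the authors' deposited tables of their own comparisons HIST1H1C was listed for dopamine (log2 fold change 1.43, FDR 2.31e-10) and for cocaine (1.05, FDR 8.06e-06). The comparator was not named in those tables, and the values matched ratios to the control group. HIST1H2AI, an H2A gene on chromosome 6 (27808199 to 27808667) under the read threshold used here, was listed for cocaine in the authors' deposited table (3.45, FDR 0.03). Its reads were 0, 2 and 0 in the controls and 6, 4 and 13 with cocaine. No gene of the 76 symbols was listed in the authors' deposited tables for the groups with inhibitor.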

How the data were processed

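The authors deposited raw counts of reads per gene and TPM values, scaled by the authors to a fixed sum per library. Tables of the authors' own comparisons hold log2 fold changes with p-values and FDR values, per the file headers. Reads were placed on GRCh38 (hg38), per the submitters' processing notes. Aligner, counter, strand setting and annotation were not given in the sources used here, so overlapping or antisense reads cannot be separated. Counts were tested with edgeR 4.0.16 in R 4.3.3 (TMM scaling, expression filter with minimum count 10, robust quasi-likelihood F-test, two-sided, all 18 libraries in 1 fit, 9 contrasts, Benjamini-Hochberg over 18913 genes, called at an adjusted p under 0.05). CPM are TMM-scaled, and log2 CPM used a prior count of 2. Alternatives were RLE size factors, DESeq2 1.42.0, voom (limma 3.58.1), no or a stricter filter (minimum count 50), fits of the compared groups only and leaving out each library. Summing near-identical copies was added after seeing the data. The test was also run on simulated counts drawn from the kind of distribution it assumes. Such counts cannot show whether the libraries of a group were separate cultures.

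The text names HIST1H1C, members called in any comparison, the 3 highest by TPM per class, the 3 on each side of the read threshold, and per comparison the 2 largest differences each way at a mean of at least 1 CPM. Of other lists it names the genes called with dopamine or cocaine against control. Further members, and the genes beside them, were named after their values were seen. Members and lists were chosen with earlier results of these data known. Of 28 members, 28 matched RefSeq. Totals of 23789195 to 30327891 reads put a gene at 1 CPM at about 23.8 to 30.3 reads, and p-values for members under that rest on few reads.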

Additional observations from a re-analysis of the deposited data

How the results depend on the processing

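No paired analysis was possible because the labels carry no replicate numbers. Counts of histone genes called changed under some settings. For cocaine vs control the 1 called became 2 under RLE size factors, the stricter filter, DESeq2 and a fit of the groups compared, the second being HIST1H2BK. For cocaine + inhibitor vs control + inhibitor the 0 became 1 (HIST1H1C) with DESeq2. Leaving out 1 library gave 0 to 1 for dopamine vs control, 0 to 1 for cocaine vs control and 0 to 1 for cocaine + inhibitor vs control + inhibitor. Requiring 10 reads in all 18 libraries would keep 16 members. Of 544 values of single genes under alternatives, 523 kept direction and side of the threshold, 8 lost a call, 6 gained one and 7 turned sign. The 7 all arose with 1 library left out and none was called. Their ranges were -0.021 to 0.35 for HIST1H1C in control + inhibitor vs control, -0.27 to 0.17 for HIST1H1C and -0.35 to 0.090 for HIST1H2AE in cocaine + inhibitor vs cocaine, -0.26 to 0.019 for HIST1H2BK in cocaine + inhibitor vs control + inhibitor, and -0.028 to 0.29 for HIST2H2AA4 in dopamine + inhibitor vs dopamine. The cause was not tested.

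Over all genes the calls for dopamine vs control went from 133 to 486 with DESeq2, 540 in a fit of the groups compared, and 7 to 100 with 1 library left out. For cocaine vs control they went from 818 to 1648, 1583, and 0 to 1121. For cocaine + inhibitor vs control + inhibitor the 4 became 9 without a filter, 313 with DESeq2 and 0 in a fit of the groups compared. DESeq2 gave 4 for control + inhibitor vs control (main 0), 10 for dopamine + inhibitor vs control + inhibitor (main 1), 33 for dopamine + inhibitor vs dopamine (main 1), and 18 and 1 for the interactions of dopamine and cocaine with the inhibitor (main 1 and 0).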
